A study of Mus musculus with 32 samples.

Results

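Of the 36595 mouse genes in the count table, 10 are described here: Defb1, Eppk1, Sulf2, Gbp6, Cpm, Itpr3, Plcg2, Enah, Terf2 and Hsd17b11. They were listed because raising the glucose of the culture moved them in opposite directions in islets of the 2 genotypes studied. Of 16428 genes with enough counts to test, 2253 had glucose changes of opposite sign. Of these 2253, 31 passed an adjusted p of 0.05 in each genotype, which is 0.189% of the tested genes. All 10 listed genes were among these 31, and how they were picked from the 31 is not recorded. Both glucose changes, their difference and the genotype difference at one glucose level therefore chose the genes or share data with that choice, and for these genes they are given as a description without a test. The measure that could be tested is the genotype difference averaged over both glucose levels, a contrast orthogonal to both glucose changes in this balanced design. It shares each gene's estimate of spread with the tests that chose the genes, so its p-values are not free of that choice. It also contains the genotype difference at the higher glucose level, so a call for a listed gene partly restates the choice.

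Polyadenylated RNA was sequenced from isolated mouse islets kept in culture for 48 h after overnight recovery. The 4 groups were hIAPP and mIAPP islets kept at 16.7 mM glucose, and both genotypes kept at 11.1 mM, with 8 libraries in each group. The hIAPP mice carry the human gene for islet amyloid polypeptide at the mouse Iapp locus, placed there by homologous recombination, and the mIAPP mice are their wild-type littermates, all on C57BL/6NHsd, 10 weeks old and of both sexes. The work was done as 8 separate experiment sets with 1 library of each group, and the number of mice behind a set is not given. With each set's own level removed in the fit, p-values measure how much the group differences vary between sets.

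Islet amyloid polypeptide is a hormone that beta cells release with insulin. The human form aggregates into amyloid in islets, whereas the mouse form does not, and high glucose raises its production along with insulin. The 10 genes have no single pathway in common. Plcg2 encodes a phospholipase C that cleaves a membrane lipid into diacylglycerol and the messenger IP3, and Itpr3 encodes a receptor through which IP3 releases calcium from the endoplasmic reticulum. Sulf2, Cpm, Defb1 and Gbp6 encode proteins of the cell surface, secretion and host defence, Eppk1 and Enah act on the cytoskeleton, and Terf2 and Hsd17b11 act at telomeres and on lipid droplets.

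All 10 are annotated as protein-coding genes in GENCODE M21 on GRCm38. On chromosome 8 lie 3 of them: Defb1 (ENSMUSG00000044748) on chromosome 8 from 21776599 to 21795185, plus strand, Plcg2 (ENSMUSG00000034330) on chromosome 8 from 117498291 to 117635142, plus strand, and Terf2 (ENSMUSG00000031921) on chromosome 8 from 107069400 to 107096547, minus strand. Chromosome 5 holds a pair, Gbp6 (ENSMUSG00000104713) on chromosome 5 from 105270702 to 105293698, minus strand, and Hsd17b11 (ENSMUSG00000029311) on chromosome 5 from 103989762 to 104021919, minus strand. The others are Eppk1 (ENSMUSG00000115388) on chromosome 15 from 76101481 to 76120195, minus strand, Sulf2 (ENSMUSG00000006800) on chromosome 2 from 166073089 to 166155663, minus strand, and Cpm (ENSMUSG00000020183) on chromosome 10 from 117629500 to 117687352, plus strand. The remaining genes are Itpr3 (ENSMUSG00000042644) on chromosome 17 from 27057304 to 27122223, plus strand, and Enah (ENSMUSG00000022995) on chromosome 1 from 181896384 to 182019990, minus strand. Exons of Sulf2 overlap Ncoa3 on the other strand, so that reads there can be shared unless counted by strand. Those of Itpr3 overlap the antisense gene Itpr3os, which the count table does not hold.

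At 16.7 mM glucose, libraries held 24.7 to 43.7 M counts in hIAPP and 24.5 to 37.1 M in mIAPP islets. At 11.1 mM they held 18.8 to 34.8 M in hIAPP and 16.1 to 29.1 M in mIAPP islets. Iapp, the replaced gene, lay between 9760 and 11600 CPM, read counts scaled to library size, in hIAPP islets and 16900 and 30400 CPM in mIAPP islets at 16.7 mM, and between 5640 and 7910 CPM in hIAPP and 8640 and 15600 CPM in mIAPP islets at 11.1 mM. How much of it comes from the human sequence is not known. The 12 beta cell markers summed to a median of 180000 CPM in hIAPP and 223000 CPM in mIAPP islets at 16.7 mM, and to 224000 and 203000 CPM in hIAPP and mIAPP islets at 11.1 mM. Mitochondrial genes took a share of the counts that differed by group: at 16.7 mM its median was 3.5% (2.68 to 6.76%) in hIAPP and 7.29% (2.84 to 37%) in mIAPP islets, and at 11.1 mM it was 18.1% (5.23 to 27.2%) in hIAPP and 20.4% (3.49 to 34.7%) in mIAPP islets. The value of 37% came from set 7. In bulk islets, fewer cells of a type and less RNA per cell cannot be told apart.

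In hIAPP islets, 6 of the genes (Eppk1, Sulf2, Gbp6, Cpm, Itpr3 and Plcg2) were higher at 16.7 than at 11.1 mM glucose and 4 (Defb1, Enah, Terf2 and Hsd17b11) were lower, and in mIAPP islets each had the other sign. For scale, 65.5% of all tested genes passed the threshold for glucose in hIAPP islets (32.2% higher, 33.3% lower) and 47.5% did in mIAPP islets (24.9% higher, 22.7% lower). The difference between the genotypes passed for 3.12%, with 2.17% above and 0.95% below 0. In lists as short as those below, a count of 0 for this difference is near that share and says nothing about a list. Levels below are CPM scaled by the trimmed mean of M values (TMM), and changes are log2 fold changes from a fit over all 32 libraries. Their standard error (SE) was derived from the test, as the size of the change divided by the square root of its F statistic.

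**Figure D1:**
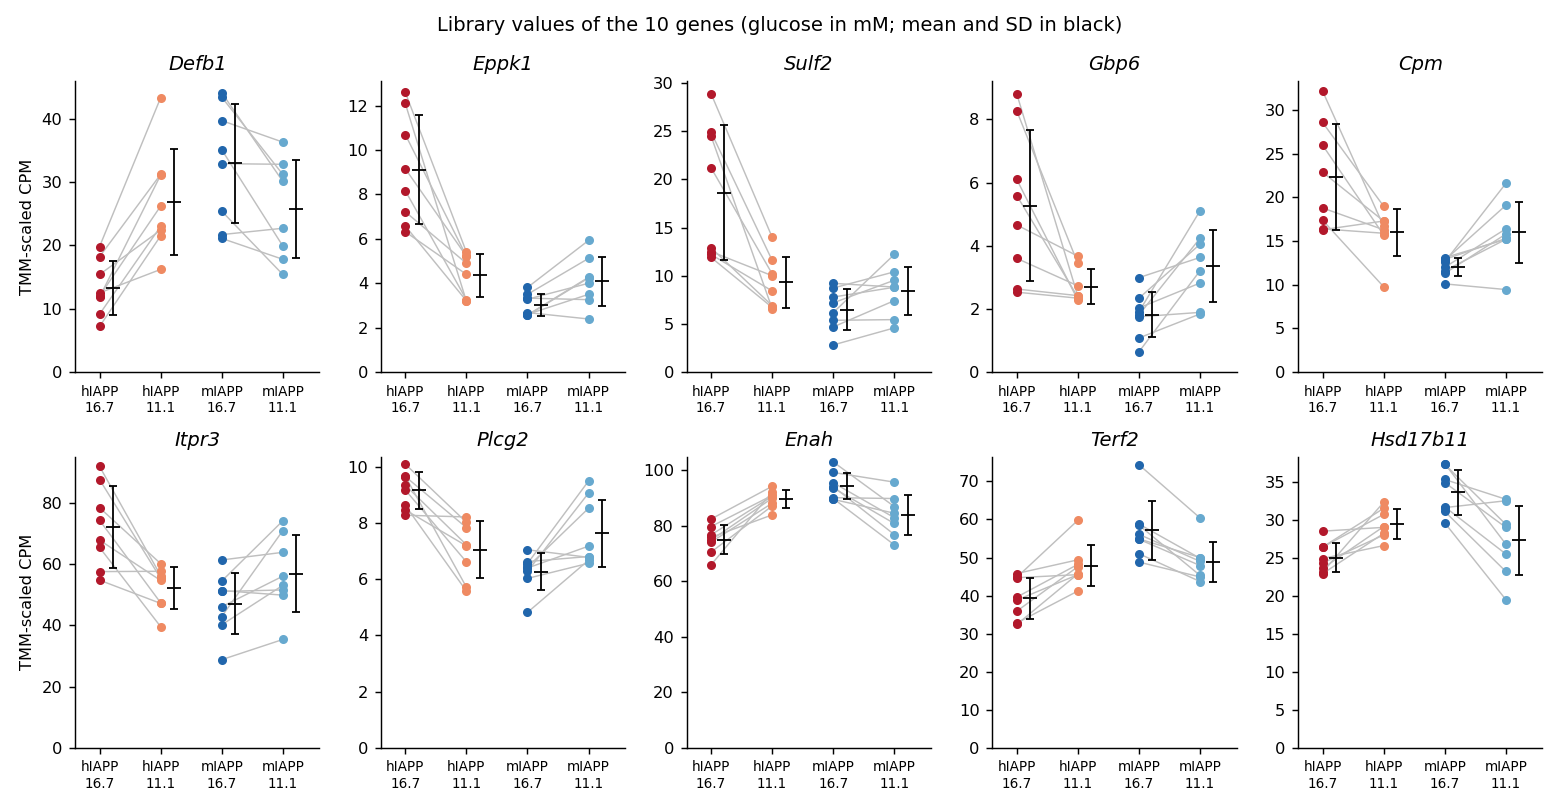
TMM-scaled CPM (linear axis from 0) of each gene in every library, with hIAPP islets left of mIAPP islets and 16.7 mM left of 11.1 mM glucose; grey lines join libraries of the same set, and black marks give the mean and SD (n = 8). In 8 of the 10 panels the hIAPP and mIAPP libraries at 16.7 mM do not overlap (2.98% of all genes), and at 11.1 mM 0 of 10 pairs are apart (0.0913% of all genes); the choice of genes used these groups, so nothing is read from the counts.

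The calcium messenger genes Plcg2 and Itpr3 were both higher in hIAPP islets at the higher glucose level. Plcg2 ran from 8.28 to 10.1 CPM (median 9.27) in hIAPP islets at 16.7 mM, against 5.58 to 8.22 CPM (median 7.21) in hIAPP islets at 11.1 mM. In mIAPP islets it ran from 4.82 to 7.05 CPM (median 6.42) at 16.7 mM, against 6.57 to 9.5 CPM (median 6.99) at 11.1 mM. The hIAPP libraries at 16.7 mM thus lay above every other library of hIAPP islets and above every mIAPP library at 16.7 mM, while the mIAPP groups overlapped. The glucose change of Plcg2 was 0.39 ± 0.095 (log2, SE) in hIAPP and -0.28 ± 0.0958 in mIAPP islets.

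Itpr3 ran from 54.8 to 92 CPM (median 71.2) in hIAPP islets at 16.7 mM, against 39.6 to 60.2 CPM (median 55) in hIAPP islets at 11.1 mM. The mIAPP libraries spanned 28.8 to 61.4 CPM (median 48.6) at 16.7 mM, against 35.4 to 74.2 CPM (median 54.6) at 11.1 mM. The groups overlapped in every pairing, and set 7 gave the lowest Itpr3 value in 3 of the 4 groups. Its glucose change was 0.47 ± 0.104 in hIAPP and -0.28 ± 0.104 in mIAPP islets. With the mitochondrial level as a covariate the hIAPP change of Itpr3 was -0.04, smaller in size than the reported SE of 0.104. The rise in hIAPP islets was thus gone, and no fall is read from that value. Across the 32 libraries, after group and set means were removed, Itpr3 had an r of -0.75 with the mitochondrial level.

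The closest relatives, named after their values were seen, did not share this pattern. Itpr1 and Itpr2, the other IP3 receptors, fell with glucose past the threshold in both genotypes, Itpr1 by 0.70 in hIAPP and 0.51 in mIAPP islets and Itpr2 by 1.24 in hIAPP and 1.02 in mIAPP islets (log2). Plcg1 likewise fell by 0.51 in hIAPP and 0.41 in mIAPP islets. Of 27 other genes of phospholipase C and IP3 signalling that were tested, 7 rose and 14 fell with glucose in hIAPP islets. Over all genes, 32.2% rose and 33.3% fell there. In mIAPP islets 5 of the 27 rose and 8 fell, beside 24.9 and 22.7% of all genes. None of the 27 passed for the difference between genotypes, beside 3.12% of all genes. The median difference over the 27 was -0.06, beside -0.02 over all genes.

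Promoters of 2 genes higher and 2 genes lower at 16.7 mM in hIAPP islets are shown, so that the letters searched can be read in place: those of Itpr3 and Plcg2 hold an E-box (CACGTG, a palindrome bound by basic helix-loop-helix factors), and those of Terf2 and Hsd17b11 a CCAAT box. These boxes did not part the genes by direction, since Sulf2, higher in hIAPP islets, holds a CCAAT box, Sulf2 and Cpm hold no E-box, and Enah, lower in hIAPP islets, holds no CCAAT box. RefSeq promoters on GRCm38.p6, from 250 bases before to 50 after the start, were matched for 7 of the 10 genes, in 9 windows, since Sulf2 and Terf2 have 2 each and those of Terf2 nearly coincide. Defb1, Eppk1 and Gbp6 had no entry. Capitals mark every E-box, CCAAT box and GC box (GGGCGG), on either strand. The windows are chr17:27057054-27057353 on the plus strand for Itpr3, chr8:117498025-117498324 on the plus strand for Plcg2, chr8:107096496-107096795 on the minus strand for Terf2 and chr5:104021747-104022046 on the minus strand for Hsd17b11, each written 5′ to 3′.
Itpr3: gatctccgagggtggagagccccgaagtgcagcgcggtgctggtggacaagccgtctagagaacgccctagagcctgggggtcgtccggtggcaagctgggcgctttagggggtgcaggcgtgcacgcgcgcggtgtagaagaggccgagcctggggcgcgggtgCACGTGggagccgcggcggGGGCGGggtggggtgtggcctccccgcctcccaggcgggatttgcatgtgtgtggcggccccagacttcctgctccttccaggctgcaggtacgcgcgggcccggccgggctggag
Plcg2: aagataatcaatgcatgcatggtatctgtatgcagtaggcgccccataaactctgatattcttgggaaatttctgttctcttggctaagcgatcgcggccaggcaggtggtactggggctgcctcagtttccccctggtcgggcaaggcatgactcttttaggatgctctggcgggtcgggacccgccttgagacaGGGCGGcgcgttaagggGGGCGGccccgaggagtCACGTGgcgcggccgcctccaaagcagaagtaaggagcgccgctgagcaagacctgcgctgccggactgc
Terf2: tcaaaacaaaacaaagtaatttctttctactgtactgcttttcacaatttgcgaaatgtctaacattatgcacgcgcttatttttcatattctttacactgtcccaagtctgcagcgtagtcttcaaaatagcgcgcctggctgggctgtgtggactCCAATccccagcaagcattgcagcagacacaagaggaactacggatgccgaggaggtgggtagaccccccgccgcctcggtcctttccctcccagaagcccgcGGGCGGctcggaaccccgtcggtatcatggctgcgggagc
Hsd17b11: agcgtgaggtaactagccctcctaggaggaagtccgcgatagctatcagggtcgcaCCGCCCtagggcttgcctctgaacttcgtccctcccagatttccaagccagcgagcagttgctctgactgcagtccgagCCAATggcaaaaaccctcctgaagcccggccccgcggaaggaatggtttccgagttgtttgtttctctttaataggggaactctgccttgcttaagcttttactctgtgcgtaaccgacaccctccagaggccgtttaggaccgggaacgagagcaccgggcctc

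The E-box began at position -85 from the start of Itpr3 and at -20 from that of Plcg2. An E-box was in 2 of the 9 windows, beside 7.15% of 32851 windows of the same length. A GC box was in 8 of 9, beside 35.7%, and a CCAAT box in 4 of 9 (1 of Sulf2, both of Terf2 and that of Hsd17b11), beside 37.4%. The AP-1 site TGANTCA and the CRE core TGACG, searched on both strands, were in 0 of 9, beside 7.81 and 20.8%. These matches describe letters in the window and do not show binding.

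Sulf2 and Cpm act at the cell surface. Sulf2 encodes a secreted endosulfatase that trims sulfate groups from heparan sulfate chains, which occur in amyloid deposits. It ran from 11.9 to 28.9 CPM (median 17.1) in hIAPP islets at 16.7 mM, against 6.59 to 14 CPM (median 9.21) in hIAPP islets at 11.1 mM. Among mIAPP libraries the range was 2.81 to 9.21 CPM (median 6.68) at 16.7 mM, against 4.58 to 12.2 CPM (median 8.81) at 11.1 mM. Sulf2 libraries of hIAPP islets at 16.7 mM lay above all mIAPP libraries at 16.7 mM and overlapped with hIAPP libraries at 11.1 mM. The glucose change was 1.00 ± 0.165 in hIAPP and -0.42 ± 0.168 in mIAPP islets. Its relative Sulf1 did not pass in either genotype, at 0.49 in hIAPP islets (adjusted p = 0.082, edgeR) and -0.01 in mIAPP islets (adjusted p = 0.978). Of 24 other genes of heparan sulfate chains, 0 passed for the difference between genotypes, beside 3.12% of all genes. The median difference over the 24 was 0.19, beside -0.02 over all genes.

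The gene Cpm encodes carboxypeptidase M, a membrane enzyme that removes a basic residue from the end of peptides. Its level ran from 16.3 to 32.2 units of CPM (median 20.9) in hIAPP islets at 16.7 mM, against 9.77 to 19 (median 16.5) in hIAPP islets at 11.1 mM. In mIAPP islets the values were 10.1 to 13.1 units of CPM (median 12.3) at 16.7 mM, against 9.45 to 21.6 (median 15.6) at 11.1 mM. The mIAPP libraries at 16.7 mM were the most even of the 4 groups, with an SD of 1.01 around 12.1, and lay below every hIAPP library at that glucose level. This gave a glucose change of 0.47 ± 0.108 in hIAPP and -0.39 ± 0.109 in mIAPP islets. None of 12 other carboxypeptidases of this family passed for the difference, beside 3.12% of all genes. Cpe, which trims proinsulin and the precursor of IAPP, rose with glucose by 0.89 in hIAPP and 0.75 in mIAPP islets.

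Gbp6 and Defb1 belong to host defence and moved in opposite directions. Gbp6 encodes a guanylate-binding protein of a family induced by interferon. It ran from 2.53 to 8.81 CPM (median 5.13) in hIAPP islets at 16.7 mM, against 2.28 to 3.67 CPM (median 2.41) in hIAPP islets at 11.1 mM. In mIAPP islets it ran from 0.64 to 2.99 CPM (median 1.86) at 16.7 mM, against 1.84 to 5.11 CPM (median 3.42) at 11.1 mM. The groups overlapped in every pairing, and the within-set sign was the fitted one in 8 of 8 sets in each genotype. Its fitted glucose change was 0.85 ± 0.206 in hIAPP and -0.89 ± 0.211 in mIAPP islets, and their difference of 1.74 was the highest of the 10. Gbp6 is uncertain as a single gene: 74.2% of its 31-base words also occur in transcripts of other genes, 51.4% in Gbp10 and 67.8% in a gene model that overlaps it on the same strand. The table gave Gbp10 0 to 19 counts per library and Gbp6 23 to 414.

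Of 14 other guanylate-binding and related interferon genes tested, Gbp2 alone passed for the difference between genotypes, beside 3.12% of all genes. Gbp2 averaged 2.23 CPM in hIAPP and 0.638 CPM in mIAPP islets at 16.7 mM, and 1.09 and 1.08 CPM in hIAPP and mIAPP islets at 11.1 mM (difference 1.5 ± 0.40, adjusted p = 0.0356, edgeR). With glucose, 5 of the 14 rose and 1 fell in hIAPP islets, beside 32.2 and 33.3% of all genes. In mIAPP islets 2 of the 14 rose and 4 fell, beside 24.9 and 22.7% of all genes. The 12 macrophage markers summed to 102 to 208 CPM in hIAPP and 100 to 228 CPM in mIAPP islets at 16.7 mM, and to 266 to 462 CPM in hIAPP and 210 to 401 CPM in mIAPP islets at 11.1 mM. The 10 lymphocyte markers summed to at most 8.25 CPM in hIAPP and 15.3 CPM in mIAPP islets at 16.7 mM, and to at most 18.3 CPM in hIAPP and 18.5 CPM in mIAPP islets at 11.1 mM. By median, both sums were lower at 16.7 than at 11.1 mM in hIAPP islets, where Gbp6 was higher (macrophage 144 against 376 CPM, lymphocyte 5.68 against 15.9 CPM). They were also lower at 16.7 mM in mIAPP islets, where Gbp6 was lower too (macrophage 160 against 304 CPM, lymphocyte 7.68 against 15 CPM). Their part in the result was not tested.

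Defb1 encodes beta-defensin 1, an antimicrobial peptide made by epithelia. It ran from 7.19 to 19.8 CPM (median 12.2) in hIAPP islets at 16.7 mM, against 16.2 to 43.3 CPM (median 24.6) in hIAPP islets at 11.1 mM. The mIAPP libraries spanned 21.1 to 44.1 CPM (median 34) at 16.7 mM, against 15.4 to 36.3 CPM (median 26.4) at 11.1 mM. The hIAPP libraries at 16.7 mM lay below all mIAPP libraries at 16.7 mM. The glucose change was -1.02 ± 0.126 in hIAPP and 0.35 ± 0.124 in mIAPP islets. Per kilobase of exon, Defb1 was the most abundant of the 10 genes, at 28.3 CPM per kilobase on average, above 92.4% of tested genes, and Eppk1 the least, at 0.417.

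Among 6 other epithelial antimicrobial genes, S100a9 alone passed for the difference, beside 3.12% of all genes. S100a9, a subunit of the neutrophil protein calprotectin, went the other way from Defb1. It had 25 to 773 counts per library in hIAPP and 0 in all mIAPP libraries at 16.7 mM, and 0 to 5 counts in hIAPP and 0 to 7 counts in mIAPP libraries at 11.1 mM. A single hIAPP library held 773 of the 1369 counts of its group. With glucose, 3 of the 6 rose and 1 fell in hIAPP islets, beside 32.2 and 33.3% of all genes. Lcn2 rose by 2.36 there and Slpi, at a mean of 0.887 CPM, by 4.75. In mIAPP islets Lcn2 stood at -0.14 and Slpi at -0.24, and neither passed for the difference. The median difference over the 6 was 1.62, beside -0.02 over all genes.

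Eppk1 and Enah act on the cytoskeleton. Eppk1 encodes epiplakin, which binds keratin filaments of epithelial cells. It ran from 6.32 to 12.6 CPM (median 8.67) in hIAPP islets at 16.7 mM, against 3.19 to 5.41 CPM (median 4.65) in hIAPP islets at 11.1 mM. Among mIAPP libraries the range was 2.55 to 3.81 CPM (median 2.98) at 16.7 mM, against 2.39 to 5.93 CPM (median 4.12) at 11.1 mM. Every hIAPP library at 16.7 mM lay above every library of the other 3 groups. This gave a glucose change of 1.07 ± 0.152 in hIAPP and -0.43 ± 0.155 in mIAPP islets. In mIAPP islets that sign was found in 6 of 8 sets. An overlapping gene on the same strand, BC024139, shares 6.19% of the 31-base words of Eppk1, and its own changes were -0.08 in hIAPP and -0.88 in mIAPP islets.

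Of 15 other plakin and keratin filament genes, 3 passed for the difference, beside 3.12% of all genes. All 3 had the higher glucose change in hIAPP islets: Krt7 (0.69 ± 0.155, adjusted p = 0.0103, edgeR), Krt8 (0.63 ± 0.160, adjusted p = 0.0265) and Dst (0.54 ± 0.144, adjusted p = 0.0357). Krt7 and Krt8 are keratins of simple epithelia, and Dst encodes the plakin dystonin. Unlike Eppk1, Krt8 also rose with glucose in mIAPP islets, by 0.43. The 10 ductal markers, one of which is Krt7, summed to 760 to 1500 CPM in hIAPP and 598 to 1050 CPM in mIAPP islets at 16.7 mM. At 11.1 mM they summed to 445 to 746 CPM in hIAPP and 445 to 618 CPM in mIAPP islets. The ductal sum was thus higher at 16.7 mM by median in both genotypes, whereas Eppk1 was lower in mIAPP islets, and its part in the result was not tested.

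Enah encodes an Ena/VASP protein that promotes the growth of actin filaments. It ran from 65.9 to 82.4 CPM (median 75.3) in hIAPP islets at 16.7 mM, against 83.9 to 94.2 CPM (median 90.3) in hIAPP islets at 11.1 mM. In mIAPP islets the values were 89.5 to 103 CPM (median 93.8) at 16.7 mM, against 73.1 to 95.7 CPM (median 83.7) at 11.1 mM. The hIAPP libraries at 16.7 mM lay below all hIAPP libraries at 11.1 mM and all mIAPP libraries at 16.7 mM. Its fitted glucose change was -0.26 ± 0.0564 in hIAPP and 0.17 ± 0.0565 in mIAPP islets, with these signs in 8 of 8 sets in both. Of 21 other actin genes, Actg1 alone passed for the difference, beside 3.12% of all genes. Actg1, a cytoplasmic actin, went in the other direction from Enah (0.70 ± 0.116, adjusted p = 0.000726, edgeR). The relatives Vasp and Evl did not pass for the difference, at 0.31 (adjusted p = 0.0643) and -0.24 (adjusted p = 0.235).

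Terf2 encodes TRF2, the shelterin protein that guards chromosome ends. It ran from 32.4 to 45.8 CPM (median 39.2) in hIAPP islets at 16.7 mM, against 41.2 to 59.8 CPM (median 46.7) in hIAPP islets at 11.1 mM. In mIAPP islets it ran from 48.8 to 74.4 CPM (median 55.5) at 16.7 mM, against 43.7 to 60.4 CPM (median 48.4) at 11.1 mM. The 2 genotypes did not overlap at 16.7 mM, and the within-set signs were the fitted ones in 8 of 8 sets in both. The glucose change was -0.29 ± 0.0681 in hIAPP and 0.22 ± 0.068 in mIAPP islets. Terf1, its partner in shelterin, fell in hIAPP islets by 0.40 and stood at -0.05 in mIAPP islets (adjusted p = 0.774, edgeR). None of 14 other shelterin and telomerase genes passed for the difference, beside 3.12% of all genes.

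Hsd17b11 encodes a short-chain dehydrogenase found on lipid droplets. It ran from 22.9 to 28.5 CPM (median 24.6) in hIAPP islets at 16.7 mM, against 26.6 to 32.3 CPM (median 29.1) in hIAPP islets at 11.1 mM. The mIAPP libraries spanned 29.6 to 37.4 CPM (median 33.3) at 16.7 mM, against 19.5 to 32.7 CPM (median 27.9) at 11.1 mM. The genotypes did not overlap at 16.7 mM. This gave a glucose change of -0.24 ± 0.0773 in hIAPP and 0.31 ± 0.0774 in mIAPP islets. None of 14 other genes of this enzyme family and of lipid droplets passed for the difference, beside 3.12% of all genes.

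**Figure D2:**
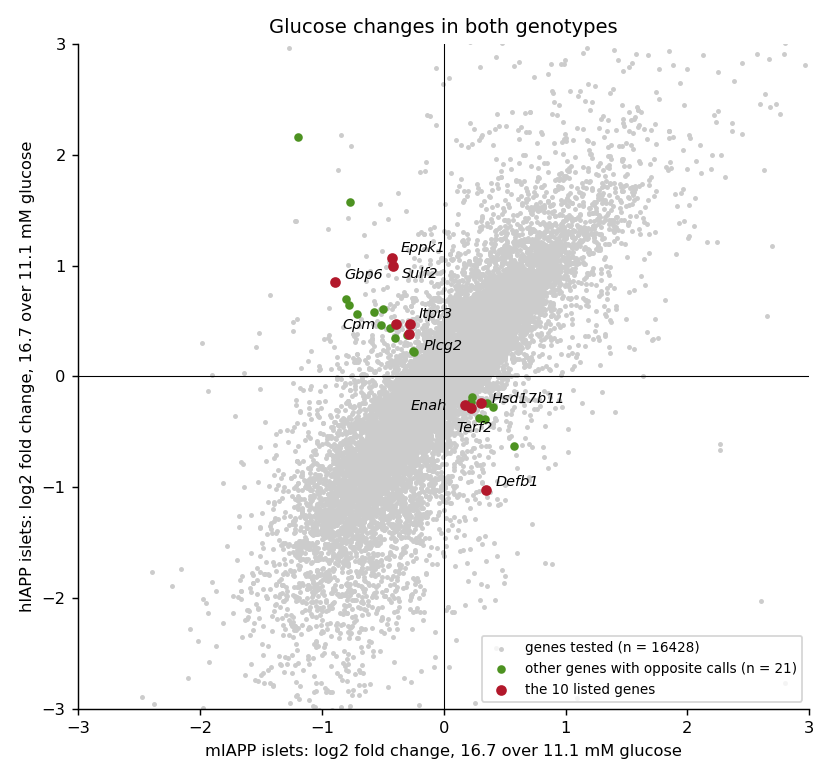
Log2 fold change for 16.7 over 11.1 mM glucose in hIAPP islets (vertical) against mIAPP islets (horizontal) for 16428 tested genes; red points are the 10 genes described and green points the 21 others with opposite calls. The axes end at 3, with 220 genes outside them, S100a9 among the green ones; the red points lie in the upper left and lower right quadrants because that is how they were chosen.

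The threshold behind the choice has genes close to it on both sides. Sulf2 was the listed gene nearest the threshold, with 0.0432 as the larger of its adjusted p-values, and Efemp2, not listed, had 0.0493 (0.38 in hIAPP, -0.30 in mIAPP islets). Rnf146 lay just outside at 0.0502 (-0.22 in hIAPP, 0.23 in mIAPP islets), as did Panx1 at 0.0534 (0.43 in hIAPP, -0.29 in mIAPP islets). Outside too were Rgs1 (1.38 in hIAPP, -0.57 in mIAPP islets) and Csf1 (0.36 in hIAPP, -0.74 in mIAPP islets). Others that met the thresholds without being listed were Trmt9b (-0.63 in hIAPP, 0.57 in mIAPP islets), Dop1b (0.23 in hIAPP, -0.26 in mIAPP islets), Ikzf4 (0.44 in hIAPP, -0.44 in mIAPP islets) and Sez6l (0.35 in hIAPP, -0.40 in mIAPP islets).

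Signs within each set come from the same glucose changes that chose the genes, so they are a description and no support for the opposite directions. All 10 genes had both fitted signs in sets 1, 5 and 8, 9 in set 6, 8 in sets 2, 3 and 4, and 7 in set 7. Non-overlap was found for 8 of 10 genes between hIAPP and mIAPP islets at 16.7 mM, beside 2.98% of all genes, and for 3 of 10 between 16.7 and 11.1 mM in hIAPP islets, beside 22.7%. It was found for 0 of 10 between 16.7 and 11.1 mM in mIAPP islets, beside 4.05%, and for 0 of 10 between the genotypes at 11.1 mM, beside 0.0913%. Since the choice of genes used these groups, nothing is read from these counts.

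The genotype difference averaged over both glucose levels was tested in the same fit (edgeR's quasi-likelihood test, Benjamini-Hochberg over all genes). It passed for 8 of the 10 genes, beside 12% of all genes (1975 of 16428). Of the 10, 6 were higher in hIAPP islets, beside 5.67% of all genes, and 2 lower, beside 6.36%. At the lower glucose level the genotype differences of the 10 genes ran only from -0.24 (Gbp6) to 0.13 (Sulf2). Their averages therefore mostly carry the difference at the higher glucose level, which shares data with the choice of genes. Genes not chosen this way are no fair comparison, so nothing is read from these counts beside the shares of all genes. Eppk1 (0.83 ± 0.109, adjusted p = 1.47e-05) and Sulf2 (0.83 ± 0.118, adjusted p = 4.32e-05) were the most raised in hIAPP islets, followed by Gbp6 (0.63 ± 0.146, adjusted p = 0.00673) and Cpm (0.43 ± 0.0766, adjusted p = 0.000618). Itpr3 (0.26 ± 0.0734, adjusted p = 0.022) and Plcg2 (0.22 ± 0.0674, adjusted p = 0.0361) were raised less. Defb1 (-0.63 ± 0.0884, adjusted p = 3.98e-05) and Terf2 (-0.28 ± 0.0482, adjusted p = 0.000392) were lower in hIAPP islets. Enah, at -0.12 ± 0.0399 (adjusted p = 0.0558), and Hsd17b11, at -0.15 ± 0.0547 (adjusted p = 0.0651), did not pass. The sign was the fitted one in 8 of 8 sets for each gene except Itpr3 and Hsd17b11, with 7.

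Markers of several cell types passed for the same average. Lower in hIAPP islets were 5 of 10 endothelial markers (median -0.45) and 4 of 12 beta cell markers (median -0.20), beside 6.36% of all genes. Among those 4 is Iapp, the replaced gene, at -0.98. Higher were 3 of 12 macrophage (median 0.17) and 2 of 9 ductal markers (median -0.04), beside 5.67% of all genes. The 10 endothelial markers summed to 22 to 64.6 CPM in hIAPP and 44 to 150 CPM in mIAPP islets at 16.7 mM, and to 75.3 to 203 CPM in hIAPP and 73.2 to 216 CPM in mIAPP islets at 11.1 mM. The part of these cell types in the 8 calls was not tested.

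The average is the mean of the genotype differences at both glucose levels, so it is not a separate observation from the difference at 16.7 mM. At 16.7 mM the genotype differences ran from -1.31 (Defb1) to 1.58 (Eppk1), and at 11.1 mM from -0.24 (Gbp6) to 0.13 (Sulf2). Some of these calls depended on the processing. Plcg2 lost its call with the mitochondrial level as a covariate, as did Itpr3. Without the set as a block, Itpr3 (adjusted p = 0.154), Plcg2 (adjusted p = 0.0923) and Gbp6 (adjusted p = 0.0745) lost it, and with no filter on low counts Plcg2 did (adjusted p = 0.0737). Among the libraries with under 10% mitochondrial counts Eppk1 alone of the 10 passed. At 16.7 mM these were 8 hIAPP and 5 mIAPP libraries, and at 11.1 mM 2 hIAPP and 3 mIAPP libraries. In these libraries the average was larger in size than reported for Eppk1 (0.886), Gbp6 (0.782), Cpm (0.438), Defb1 (-0.717) and Terf2 (-0.298). It was smaller for Sulf2 (0.634), Itpr3 (0.183), Plcg2 (0.148), Hsd17b11 (-0.11) and Enah (-0.105). Leaving out the mIAPP library with 37% mitochondrial counts also ended the call of Plcg2.

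**Figure D3:**
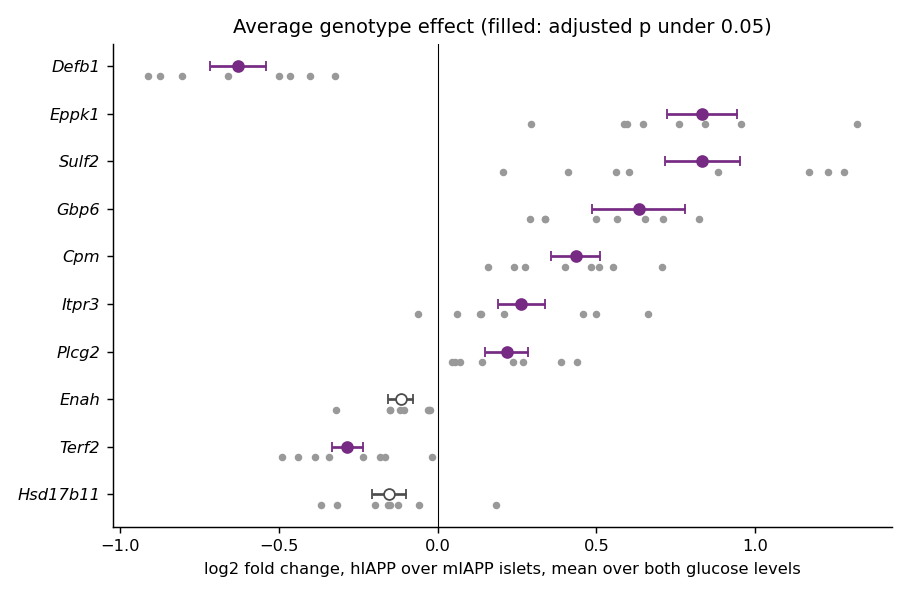
Log2 fold change of hIAPP over mIAPP islets averaged over both glucose levels, for each gene: the large point is the fitted value with its SE (filled where the adjusted p is under 0.05), and grey points are the 8 sets, computed from log2 of CPM plus 0.5. Of the 10 fitted values, 6 lie above 0 and 4 below, and the open points are Enah and Hsd17b11.

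The other genes of the pathways were counted for the same average. Over all genes, 5.67% passed as higher and 6.36% as lower in hIAPP islets, and a count near these shares says nothing about a list. Of the 14 guanylate-binding and interferon genes 5 were higher and 0 lower in hIAPP islets, among them Gbp2 (0.86 ± 0.20, adjusted p = 0.00748, edgeR). Their median was 0.27, beside -0.0040 over all genes. In the heparan sulfate list 2 of 24 were higher (Glce and Sdc4), in the keratin and plakin list 3 of 15 (Krt7, Krt8 and Dsc2), and in the antimicrobial list 1 of 6, with none lower. That gene was S100a9, with 0 counts in all 8 mIAPP libraries at 16.7 mM and 773 of 1369 hIAPP counts there in a single library, so its call is not read further. Of the actin genes 2 of 21 were higher (Actg1 and Abi1) and 1 lower (Evl). In the lipid droplet list 3 of 14 were higher (Hsd17b7, Plin2 and Dgat2) and 2 lower (Hsd17b1 and Lipe). Lower in hIAPP islets were also 2 of 14 shelterin and telomerase genes (Acd and Tert) and 1 of 27 phospholipase C and IP3 genes (Ip6k1). None of the 12 carboxypeptidases passed.

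What the genes share beyond the group means was described by their residuals, the part of log2(CPM + 0.5) left after group and set means are removed, over 32 libraries. Among the 6 genes higher with glucose in hIAPP islets, r ran from -0.38 to 0.69 over 15 pairs, with a median of 0.32 and 12 positive. Among the other 4 genes, r ran from 0.11 to 0.65 over 6 pairs, all positive, with a median of 0.46. Between the directions it ran from -0.63 to 0.18 over 24 pairs, with a median of -0.34 and 2 positive. The same libraries, their depth and their mitochondrial level enter every pair. The r of other gene pairs is not given for comparison, so the pattern is not read as particular to these genes. With the mitochondrial level itself, r was -0.75 for Itpr3, -0.44 for Plcg2, -0.39 for Sulf2, -0.38 for Eppk1 and -0.22 for Cpm, and 0.55 for Terf2, 0.45 for Hsd17b11 and 0.38 for Defb1. Gbp6, at 0.022, and Enah, at -0.0037, had almost none.

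**Figure D4:**
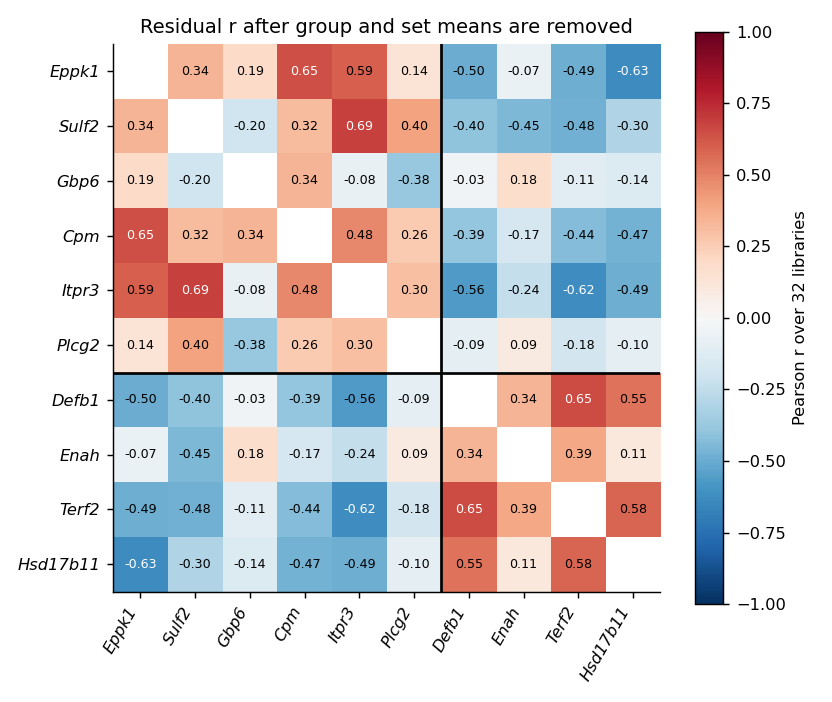
Pearson r between the 10 genes over 32 libraries after group and set means are removed; colour and number give r, and black lines part the 6 genes higher at 16.7 mM in hIAPP islets (first) from the 4 lower ones. Values within each block are mostly positive and those between the blocks mostly negative, from -0.63 to 0.69. The same libraries and their mitochondrial level enter every pair.

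The 3 genes with the most similar residuals were found for each of the 10 among 13077 genes, and none of the 10 was among them. For Itpr3 they were Inpp5b, Anpep and Anapc2 (r from 0.89 to 0.90), and for Plcg2 they were Shq1, Cdyl and Psmb7 (0.74 to 0.77). Sulf2 was nearest to Lpcat4, Plaur and Loxl1 (0.78 to 0.80), and the gene Cpm to Ceacam1, Pde1c and Zxdc (0.74 to 0.80). Eppk1 was nearest to Dnah9, Sorl1 and Pgm1 (0.75 to 0.78), and Gbp6 to Acad9, Il1a and Rps6ka5 (0.66 to 0.70). For Defb1 they were Mns1, Cox6a2 and Mafa, a beta cell transcription factor (0.72 to 0.77). Enah was nearest to Tmem245, Spin4 and Ppm1b (0.73 to 0.80), Terf2 to Sfxn2, Tmprss11a and Cyp4f17 (0.74 to 0.82), and Hsd17b11 to Mterf1a, Frg1 and Nipal2 (0.72 to 0.78).

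**Figure D5:**
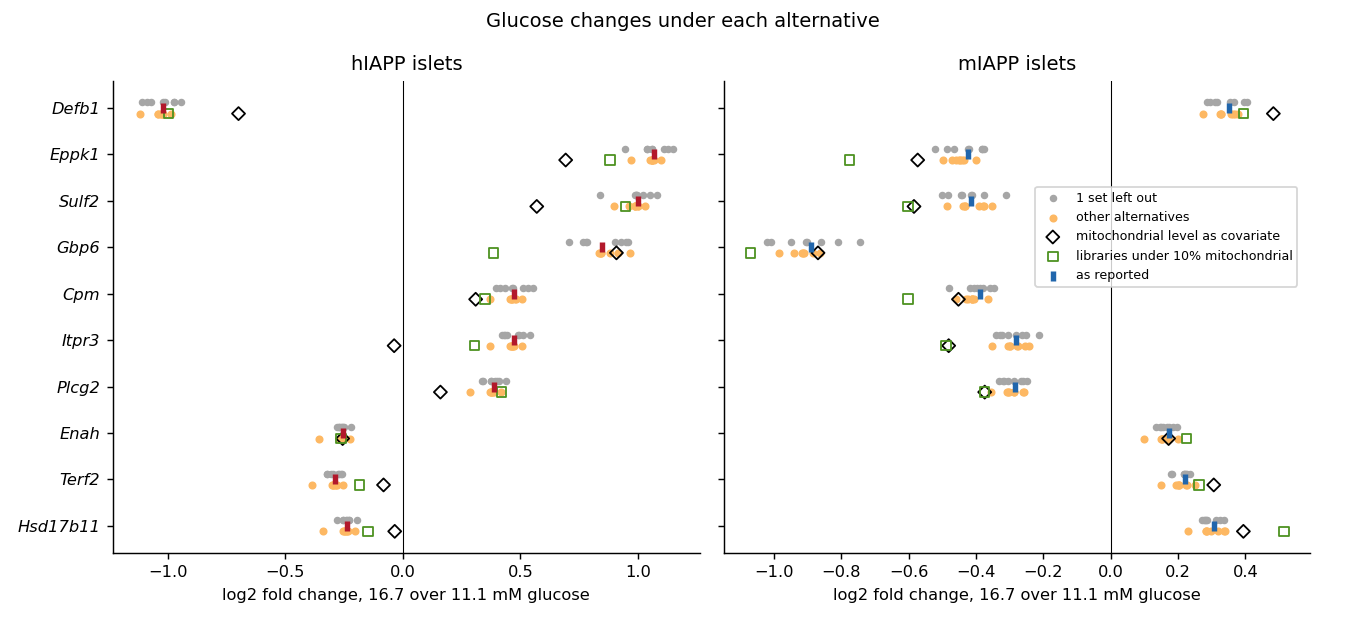
Log2 fold change for 16.7 over 11.1 mM glucose of each gene in hIAPP islets (left) and mIAPP islets (right): the thick bar is the value reported, grey points leave out 1 set, orange points are other alternatives, diamonds have the mitochondrial level as a covariate and squares use libraries under 10% mitochondrial counts. The point on the other side of 0 from its reported value is the diamond of Itpr3 in hIAPP islets, at -0.04.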

How the data were processed

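RNA was measured in 32 islet libraries, 8 in each of 4 groups, grouped by their labels. The authors deposited unscaled expected counts, as whole numbers for each gene. Per the submitters' processing notes, bcl2fastq 1.8.4 and kallisto 0.45.0 were used with GRCm38; how transcripts were summed to genes is not given in the sources used here. Totals ran from 16.1 to 43.7 M per library, and 0 columns of values were without a sample.

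TMM scaling was done with edgeR 4.0.16 (R 4.3.3), and filterByExpr by group kept 16428 of 36595 genes, all 10 members included. A quasi-likelihood fit (glmQLFit, robust; glmQLFTest) held the 4 groups and the experiment set as a block, with 21 residual degrees of freedom, and p-values were adjusted over all tested genes by Benjamini-Hochberg at 0.05. The labels describe 8 sets that each held the 4 groups, and the replicate number was taken as the set. After group means were removed, libraries of the same set had a mean r of 0.28 and a lowest of -0.23, and those of different sets a mean of -0.038. The average genotype test was tested on simulated data first. Alternatives were DESeq2 1.42.0, limma 3.58.1 (voom), other filters and scalings, a mitochondrial covariate and subsets of libraries.

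The 10 genes, the gene lists and the promoter motifs were chosen with earlier results of these data known. Named were all 10 genes, up to 4 genes per list with the smallest p in the average genotype effect or the difference of glucose changes, the 3 nearest genes by residual r (mean 1 CPM or more), and up to 5 genes on each side of the border. Named after their values were seen were Itpr1, Itpr2, Plcg1, Sulf1, Terf1, Gbp10, BC024139, Dgat2 and Efemp2. Shared 31-base words, gene positions and exon lengths come from GENCODE M21 on GRCm38, and exon lengths were found for 16214 tested genes.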

Additional observations from a re-analysis of the deposited data

Results flagged for a closer look

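The glucose changes of all 10 genes differed between hIAPP and mIAPP islets, which is what they were chosen for. The difference (log2, hIAPP minus mIAPP) was 1.74 for Gbp6, 1.5 for Eppk1, 1.42 for Sulf2, 0.863 for Cpm, 0.755 for Itpr3, 0.67 for Plcg2, -0.428 for Enah, -0.509 for Terf2, -0.544 for Hsd17b11 and -1.37 for Defb1. Among other genes of the pathway lists, which were chosen with earlier results known, the difference passed in edgeR's test for Gbp2 (1.5), Actg1 (0.701), Krt7 (0.694), Krt8 (0.631) and Dst (0.54). It also passed for S100a9, itself one of the 31 genes with opposite calls, where the fitted 10.6 depends on the prior count, since all 8 mIAPP libraries at 16.7 mM had 0 counts.

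A sample stood apart from the other 7 of its group in 5 of 40 gene and group combinations, where chance gives about 1 in 20. The gene Cpm was at 9.77 CPM in the hIAPP library of set 7 at 11.1 mM, with 15.7 the next lowest. Plcg2 was at 4.82 CPM in the mIAPP library of set 7 at 16.7 mM, with 6.03 the next lowest. Terf2 was at 74.4 CPM in that same library, with 58.8 the next highest, and at 60.4 CPM in the mIAPP library of set 7 at 11.1 mM, with 50 the next highest. It was also at 59.8 CPM in the hIAPP library of set 5 at 11.1 mM, with 49.4 the next highest. The mitochondrial share was 37, 27.2 and 34.7% in the mIAPP library at 16.7 mM, the hIAPP library at 11.1 mM and the mIAPP library at 11.1 mM of set 7, and 18.6% in the hIAPP library of set 5 at 11.1 mM. The part of the mitochondrial share in these values was not tested.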

How the results depend on the processing

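The average genotype effect passed for 1975 genes as reported. It passed for 470 without the replicate block, 1214 with no filter on low counts, 638 with the mitochondrial level as a covariate, 159 in libraries under 10% mitochondrial counts and 1294 when the mIAPP library with 37% mitochondrial counts was left out, and for 779 to 2777 when 1 set was left out. Of the 10 genes, 8 passed as reported, 5 without the replicate block, 1 in libraries under 10% mitochondrial counts and 6 to 10 when 1 set was left out. Plcg2 lost its call without set 1, 2, 6, 7 or 8 and Itpr3 without set 1, 2 or 7. Over 179 gene and alternative combinations, 149 stayed on the same side of the threshold, 22 fell below it, 8 came above it and 0 changed direction. DESeq2 and voom each passed all 10 genes. The 31 genes with opposite calls became 14 without the replicate block, 18 with no filter, 7 with the covariate, 6 in libraries under 10%, 48 with DESeq2, 20 without set 2 and 47 without set 7. Gbp6 fell below the filter of 5 CPM, which left 9 of 9 tested genes with opposite signs. The covariate also left 9 of 10, since it brought the hIAPP glucose change of Itpr3 to -0.0369, which is near 0. It brought the hIAPP changes of Plcg2 to 0.16, Terf2 to -0.08 and Hsd17b11 to -0.03. The cause of these shifts was not tested. Because all 8 hIAPP libraries at 16.7 mM, but only 2 of 8 at 11.1 mM, lay under 10%, the mitochondrial level and glucose moved together in hIAPP islets. Depth limits Gbp6 most, at 23 counts in its lowest library.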
